A study of Homo sapiens with 6 samples.

Results

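Expression of 10 genes of fatty acid synthesis, desaturation and glycerolipid entry was read from arrays of Hep3B cells treated with sorafenib or with DMSO. The members were taken by symbol, as all probes that the platform annotation assigns to ACLY, ACACA, ACACB, FASN, SCD, ELOVL5, ELOVL6, FADS1, FADS2 and GPAM. These were 10 of 20045 named genes and 15 of 47321 probes. Hep3B is an established human hepatocellular carcinoma line, and sorafenib is a drug that blocks RAF kinases and several growth factor receptors. Per the labels, 3 samples received sorafenib for 24 h at a stated dose of 3 mM, a unit that could not be checked here, and 3 control samples received DMSO for 24 h. Both groups are a single cell line in culture. The labels number the samples 1 to 3 but do not say that each had its own culture, so the p-values rest on a spread that may be technical. By its title the study concerns protein disulfide isomerase inhibition together with sorafenib, and the labels of these 6 samples name no such inhibitor.

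The pathway turns citrate into stored fat. ACLY cleaves cytosolic citrate to acetyl-CoA, the acetyl-CoA carboxylases make malonyl-CoA from it, and FASN joins these units into palmitate. ELOVL enzymes lengthen fatty acids, SCD and the FADS enzymes put in double bonds, and GPAM, in the outer mitochondrial membrane, joins the first acyl chain to glycerol 3-phosphate. Of the carboxylases, ACACA is cytosolic and feeds synthesis, whereas ACACB is attached to mitochondria, where its malonyl-CoA inhibits CPT1 and so the import of fatty acids for oxidation. In liver much of the pathway is under the transcription factors SREBP-1c, ChREBP and LXR.

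The 10 genes did not move as a block. Between sorafenib and control, 4 fell (ACLY, FASN, SCD and FADS1), 2 rose (ACACB and GPAM) and 3 did not pass the test (ACACA, ELOVL5 and ELOVL6), each by its brightest tested probe. FADS2 was not detected on any array and was not tested. Testing required a detection p-value below 0.01 on 3 or more arrays of the 6, and a probe passed when limma's Benjamini-Hochberg adjusted p over 16909 probes was under 0.05. By the same rule 36.7% of 10598 genes passed, 19.7% higher and 17% lower, against 6 of the 9 tested members. Over probes the share was 34.2%, 17.9% higher and 16.2% lower. Past the threshold and at least 2-fold were 2.78% of genes, among them ACACB and GPAM. The groups did not overlap for 6 of the 9 tested members, against 53.5% of all tested genes. The median log2 difference was -0.23 over the 9 tested members and -0.00043 over all tested genes. The members were chosen with earlier results of these arrays known, so these counts describe them and show nothing particular to them.

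**Figure D1:**
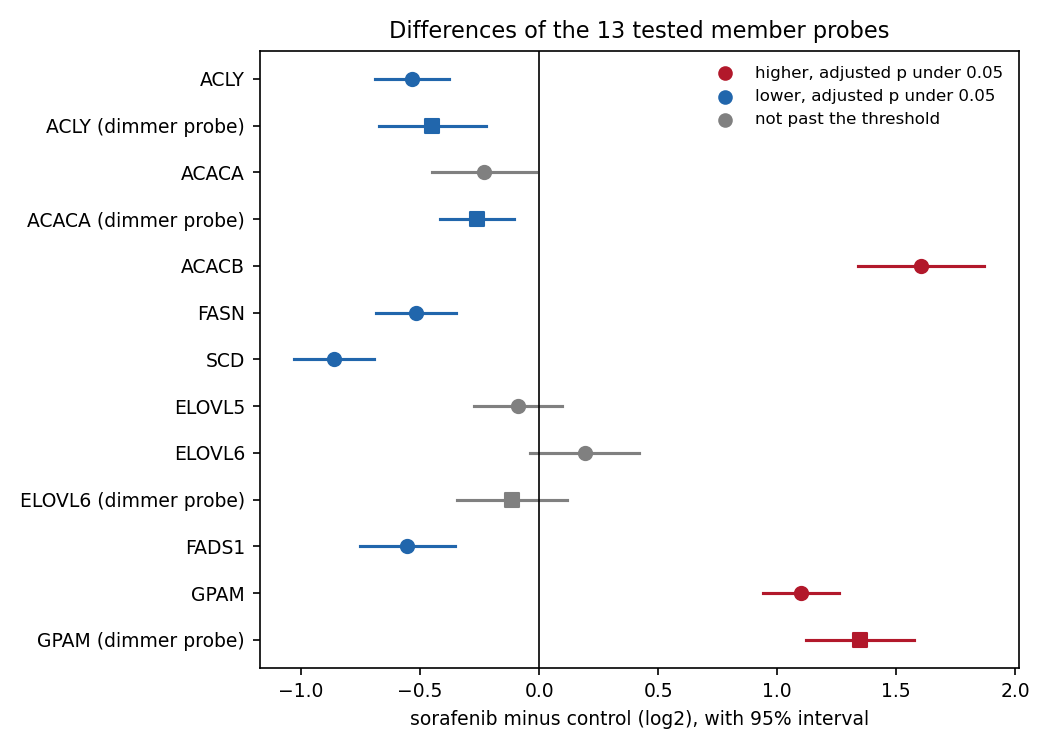
Difference between sorafenib and control for the 13 tested member probes, on the log2 scale (x axis), with limma's 95% interval as a line; circles are the probe used for the gene and squares a dimmer second probe. ACACB and both GPAM probes lie to the right of 0 (1.10 to 1.61), while both ACLY probes, FASN, SCD and FADS1 lie to the left (-0.86 to -0.45). The dimmer ACACA probe also passed the test on the left (-0.26), while the brighter one did not pass.

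Windows before annotated starts of the members that moved are shown because members of 1 pathway moved in opposite directions. RefSeq promoter entries (build GRCh38.p14) matched 9 of the 10 members, all but FASN, in 14 windows. Printed are the 250 bases before the start for each gene that moved and has an entry, 5′ to 3′ on the gene's strand, and for ACLY and ACACB only 1 of the 2 annotated starts. The ACACB start shown was chosen after the search, since the window of its other start held none of the motifs searched. Capitals mark matches on either strand to CCAAT (the NF-Y box, ATTGG on the other strand) and GGGCGG (the Sp1 box, CCGCCC on the other strand).
ACLY: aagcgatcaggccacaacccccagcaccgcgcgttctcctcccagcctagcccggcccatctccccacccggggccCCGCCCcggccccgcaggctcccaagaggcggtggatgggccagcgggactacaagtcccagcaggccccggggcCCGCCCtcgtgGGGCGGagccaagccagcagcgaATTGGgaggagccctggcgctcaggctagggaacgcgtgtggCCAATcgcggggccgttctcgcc
SCD: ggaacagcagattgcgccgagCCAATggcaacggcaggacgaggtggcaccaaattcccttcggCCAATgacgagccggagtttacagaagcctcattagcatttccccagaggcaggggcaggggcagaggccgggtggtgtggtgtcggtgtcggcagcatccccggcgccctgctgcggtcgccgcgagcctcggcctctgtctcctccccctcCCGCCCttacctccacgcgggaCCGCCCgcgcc
FADS1: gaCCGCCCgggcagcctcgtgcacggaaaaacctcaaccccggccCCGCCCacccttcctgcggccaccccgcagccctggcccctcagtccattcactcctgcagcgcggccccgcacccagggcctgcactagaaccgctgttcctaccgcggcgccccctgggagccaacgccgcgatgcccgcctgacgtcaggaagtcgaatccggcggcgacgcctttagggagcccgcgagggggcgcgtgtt
ACACB: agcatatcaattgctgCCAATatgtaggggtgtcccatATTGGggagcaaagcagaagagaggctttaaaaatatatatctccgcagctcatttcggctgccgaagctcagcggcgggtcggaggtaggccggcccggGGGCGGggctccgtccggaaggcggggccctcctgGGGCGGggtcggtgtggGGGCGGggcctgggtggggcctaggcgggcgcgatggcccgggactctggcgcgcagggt
GPAM: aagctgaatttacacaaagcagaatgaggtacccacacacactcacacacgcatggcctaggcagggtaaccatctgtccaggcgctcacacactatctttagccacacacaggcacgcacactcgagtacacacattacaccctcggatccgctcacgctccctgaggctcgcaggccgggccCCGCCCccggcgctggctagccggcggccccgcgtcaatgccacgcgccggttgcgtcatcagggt
These windows lie at chr17:41919023-41919272 (ACLY, minus strand), chr10:100346983-100347232 (SCD, plus strand), chr11:61817004-61817253 (FADS1, minus strand), chr12:109154429-109154678 (ACACB, plus strand, the downstream start) and chr10:112183766-112184015 (GPAM, minus strand). The ACLY, ACACB and GPAM windows lie inside the annotated coordinates of their genes, so they precede internal starts. The SCD and FADS1 windows lie directly outside theirs. The NF-Y box was found for 5 members (ACLY, ACACA, ACACB, SCD and ELOVL5), in 7 of the 14 member windows, and in 32.0% of 35116 windows of the same length over all genes. The Sp1 box was found for 8 members, all with an entry except ELOVL5, in 10 of the 14 windows, and in 42.6% of all windows. The 2 ACLY windows overlap and share their NF-Y boxes, and the 2 FADS2 windows overlap too. The window counts are thus not of separate stretches only. Both motifs thus occurred among genes that fell (ACLY and SCD) and in ACACB, which rose, and the GPAM window held 1 Sp1 box and no NF-Y box. The E-box CACGTG was found for ELOVL5 alone among the members (6.34% of all windows). The sterol regulatory element searched as TCACNCCAC (0.883% of all windows), the composite ATF4 site as TGATGNAAT (0.888%) and the LXR direct repeat, searched as a pair of half-sites with any 4 bases between (0.0142%), were in no member window. In none of the 14 windows did matches of different motifs overlap, though adjacent Sp1 boxes overlapped at ACACA. A match is a description of letters, and its absence concerns only these windows.

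ACLY, which supplies cytosolic acetyl-CoA (chromosome 17, 41866917 to 41930545), fell on both of its probes. Normalized log2 intensities on the brighter probe were 12.55, 12.52 and 12.57 with sorafenib, against 13.01, 13.14 and 13.08 in control cells. The 3 sorafenib arrays lay close together and all below the lowest control array. The fall was 1.45-fold (log2 -0.53 ± 0.07, SE, n = 3 per group, limma adjusted p = 0.00130). The dimmer probe, listed under another ACLY transcript, read 11.50, 11.46 and 11.71 with sorafenib, against 11.98, 11.91 and 12.12 in control cells, a fall of 1.36-fold (-0.45 ± 0.10, adjusted p = 0.0116). Where in each gene a probe binds is not given in the sources used here, so exon and UTR positions are not stated.

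FASN, the multi-domain synthase that makes palmitate (chromosome 17, 82078338 to 82098236), had 1 probe, detected on every array. Its normalized log2 intensities were 13.67, 13.77 and 13.76 with sorafenib, against 14.34, 14.20 and 14.21 in control cells. The groups were separate, the highest sorafenib array being below the lowest control array. FASN fell 1.43-fold (log2 -0.52 ± 0.07, SE, adjusted p = 0.00199). The deposited intensities were 14816, 12663 and 14182 with sorafenib, against 19594, 18764 and 19759 in control cells.

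**Figure D2:**
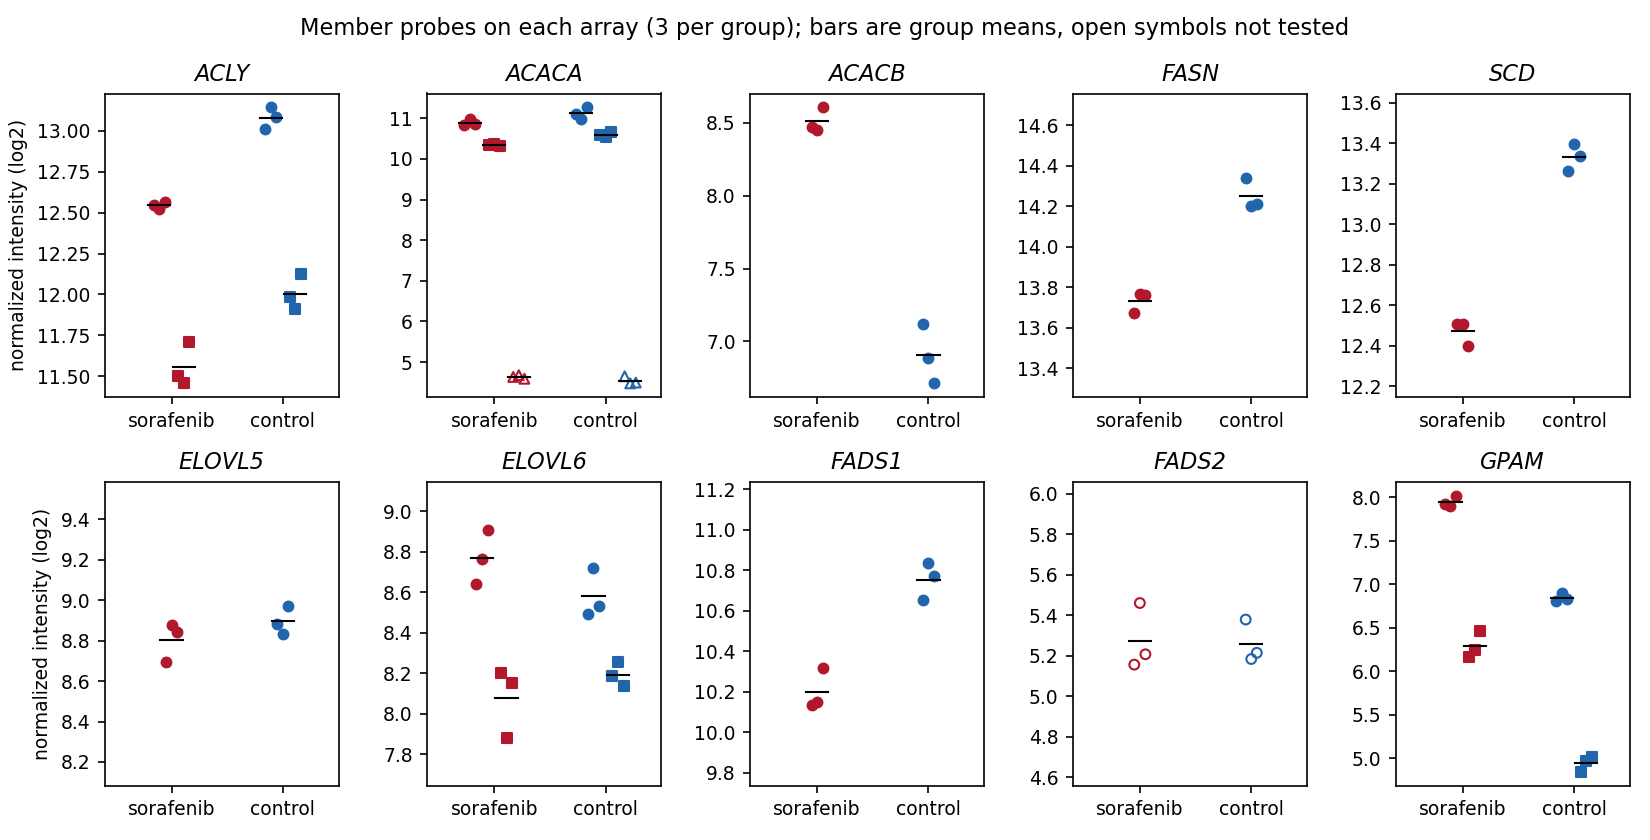
Normalized log2 intensity (y axis, a separate range in each panel) of every member probe on the 3 sorafenib and 3 control arrays; shapes are different probes of a gene, short bars are group means and open symbols are probes that were not tested. Probe by probe, sorafenib points lie below all control points for ACLY, FASN, SCD and FADS1 and above them for ACACB and GPAM, and overlap them for ELOVL5 and ELOVL6.

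The carboxylases went separate ways. ACACB, the mitochondrial isoform (chromosome 12, 109111189 to 109268226), read 8.47, 8.45 and 8.61 with sorafenib, against 7.12, 6.88 and 6.71 in control cells. Every sorafenib array was above every control array, and the control arrays differed more among themselves (SD 0.20) than the sorafenib arrays (SD 0.08). ACACB rose 3.04-fold (log2 1.61 ± 0.11, SE, adjusted p = 0.000150), which placed it 36th from the top among 10598 tested genes. Its deposited intensities were 512, 409 and 472 with sorafenib, against 202, 190 and 185 in control cells, and it was detected on all 6 arrays. The gene has 1 probe on the array.

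ACACA, the cytosolic isoform (chromosome 17, 37084992 to 37406836), has 3 probes. The brightest read 10.83, 10.99 and 10.86 with sorafenib, against 11.11, 10.98 and 11.27 in control cells. Sorafenib replicate 2 and control replicate 2 read nearly alike, so the groups overlapped, and the difference of -0.23 ± 0.09 (SE, 95% interval -0.45 to -0.01) did not pass after adjustment (adjusted p = 0.0945). The middle probe, listed under another transcript, read 10.34, 10.36 and 10.30 with sorafenib, against 10.59, 10.54 and 10.66 in control cells. That probe passed with a nearly equal difference of -0.26 ± 0.07 (adjusted p = 0.0217), and the median over both probes passed too (-0.25, adjusted p = 0.0330). The remaining ACACA probe was not detected on any array.

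The unequal change of the isoforms was measured within each array, as the log2 value of ACACB minus that of ACACA. It was -2.35, -2.53 and -2.25 with sorafenib, against -4.00, -4.10 and -4.56 in control cells. These values also hold the different brightness of the probes, so only the shift between groups is read. The shift was 1.84 on the log2 scale, a 3.58-fold change of ACACB over ACACA, with no overlap between groups (exact permutation test over the 20 splits of the arrays, two-sided, p = 0.1, the smallest p that 3 against 3 arrays can give). The contrast was chosen with earlier results known. The shift lay between 1.67 and 1.95 when any 1 array was left out, and was 1.38 without background correction and 1.60 with an offset of 50.

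**Figure D3:**
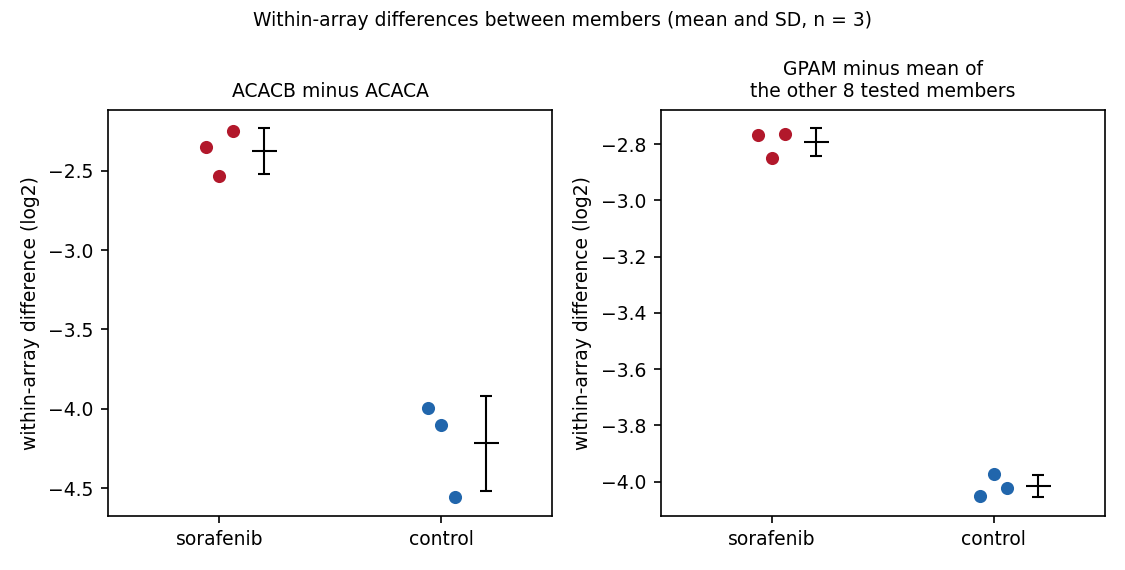
Within-array differences of normalized log2 values (y axis) on the 3 sorafenib and 3 control arrays, with mean and SD (n = 3): left, ACACB minus ACACA; right, GPAM minus the mean of the other 8 tested members. On the left the sorafenib arrays lie between -2.53 and -2.25 and the control arrays between -4.56 and -4.00; on the right the sorafenib arrays lie between -2.85 and -2.76 and the control arrays between -4.05 and -3.97.

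SCD, the desaturase that makes oleate from stearate (chromosome 10, 100347233 to 100364826), showed the deepest fall of the tested members. Its normalized log2 intensities were 12.51, 12.51 and 12.40 with sorafenib, against 13.26, 13.39 and 13.34 in control cells. SCD fell 1.82-fold (log2 -0.86 ± 0.07, SE, adjusted p = 0.000280) and stood 182nd from the bottom of 10598 tested genes. FADS1, the delta-5 desaturase of polyunsaturated fatty acids (chromosome 11, 61799627 to 61817003), read 10.13, 10.15 and 10.32 with sorafenib, against 10.65, 10.84 and 10.77 in control cells. All sorafenib arrays were below all control arrays, and the fall was 1.47-fold (-0.55 ± 0.08, adjusted p = 0.00306).

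FADS2, the delta-6 desaturase that acts before FADS1 in the same route, was not well above background on any array. Its deposited intensities were 118, 117 and 114 with sorafenib, against 117, 111 and 115 in control cells, and the lowest detection p-value was 0.0429. No fold is given for it. Its gene (chromosome 11, 61816203 to 61867354) lies head to head with FADS1, on the other strand: the annotated FADS2 starts are 800 and 599 bases from the FADS1 start, inside the FADS1 gene's coordinates. FADS1 was detected on all 6 arrays and FADS2, by its single probe, on none.

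The elongases among the members, ELOVL5 and ELOVL6, did not pass the test in either direction. ELOVL5, which lengthens polyunsaturated fatty acids (chromosome 6, 53267404 to 53348950), read 8.70, 8.88 and 8.84 with sorafenib, against 8.88, 8.83 and 8.97 in control cells. Its difference was -0.09 ± 0.08 (SE, 95% interval -0.27 to 0.09, adjusted p = 0.417), and the groups overlapped. ELOVL6, which lengthens palmitate (chromosome 4, 110045846 to 110199202), read 8.64, 8.77 and 8.91 with sorafenib, against 8.49, 8.72 and 8.53 in control cells on its brighter probe (0.19 ± 0.10, interval -0.04 to 0.42, adjusted p = 0.175). Its dimmer probe differed by -0.11 ± 0.10 (adjusted p = 0.416), so the ELOVL6 probes disagreed in sign while neither passed.

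GPAM, which starts glycerolipid synthesis (chromosome 10, 112149865 to 112227677), rose on both of its probes. The brighter read 7.92, 7.90 and 8.02 with sorafenib, against 6.81, 6.90 and 6.84 in control cells. Every sorafenib array was above every control array, and the rise was 2.14-fold (log2 1.10 ± 0.07, SE, adjusted p = 0.000102). The dimmer probe was detected on all 3 sorafenib arrays and on none of the control arrays. GPAM was at least 1.30-fold higher by that probe, as its level in control cells is only a bound (adjusted p = 0.000167; measured log2 means 6.29 ± 0.15 with sorafenib and 4.94 ± 0.09 in control cells, SD, n = 3 each). Measured within each array against the mean of the other 8 tested members, GPAM was at -2.77, -2.85 and -2.76 with sorafenib, against -4.05, -3.97 and -4.02 in control cells, a shift of 1.22 given without a test because its direction was known beforehand.

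The deposited log2 values, which carry no background correction, gave the same 6 calls with smaller rises. On them ACACB differed by 1.15, GPAM by 0.75, SCD by -0.85, FASN by -0.52, ACLY by -0.53 and FADS1 by -0.52, all past the threshold. The dim probes of ACACB and GPAM lost more of their difference than the bright probes of SCD, FASN and ACLY. The same 6 members passed in every fit that left out 1 array.

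The other genes of the pathway were read from 7 lists. Among the 65 genes measured there, 16 were past the threshold upward, 14 downward and 35 not at all (46.2% past the threshold, against 36.7% of all tested genes), and their median was 0.03. With 1 array left out the number past the threshold was 24 to 28. Centring each array on its median over all probes, in place of quantile normalization, raised the share of higher probes among those past the threshold to 69.5%, against 52.5%, and left the members at 2 higher and 4 lower.

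**Figure D4:**
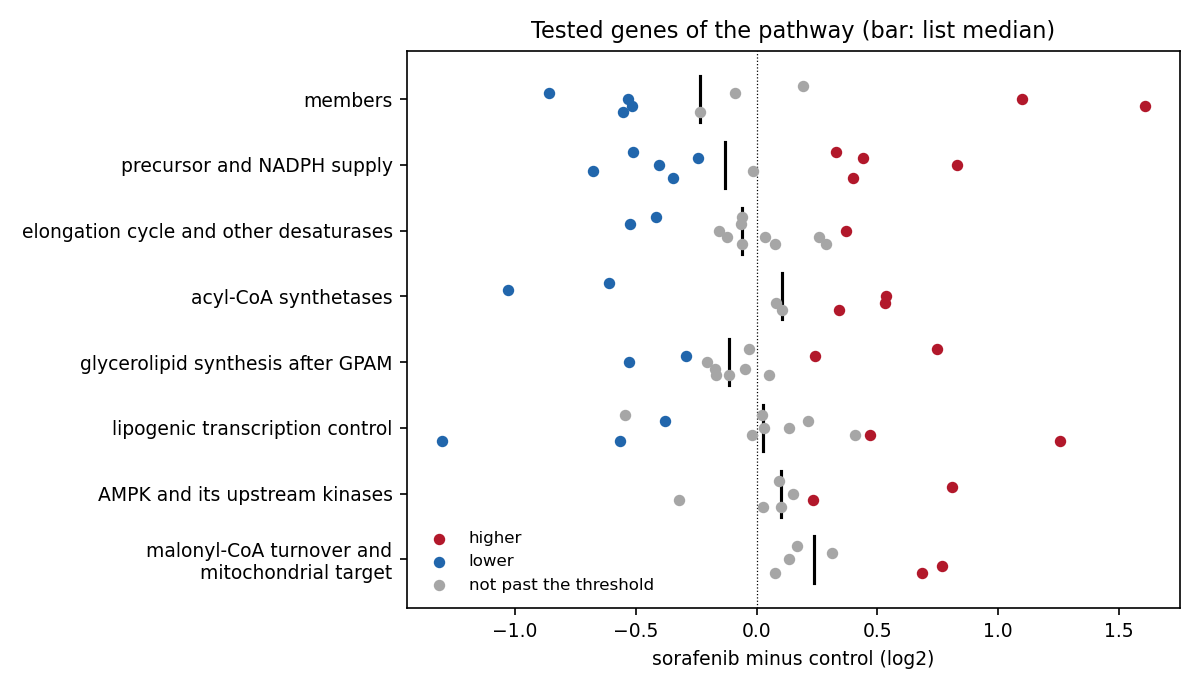
Differences between sorafenib and control on the log2 scale (x axis) for the tested genes of each list, 1 point per gene by its brightest tested probe, with the list's median as a bar; red and blue points passed the test upward and downward, grey points did not pass. The members spread from -0.86 to 1.61 and every list except those of AMPK and malonyl-CoA turnover holds genes on both sides that passed the test.

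Upstream of the members, precursor and NADPH supply was split, with 4 of 10 measured genes higher, 5 lower and a median of -0.13. The share past the threshold was 90%, against 36.7% of all tested genes. All lists were chosen with earlier results known, so their shares only describe them. The citrate exporter SLC25A1, which hands ACLY its substrate, fell 1.42-fold (log2 -0.51 ± 0.06, SE, adjusted p = 0.00135). It read 10.87, 10.95 and 10.86 with sorafenib, against 11.38, 11.41 and 11.42 in control cells. MPC1, a subunit of the mitochondrial pyruvate carrier, fell 1.60-fold. In the opposite direction IDH1, a cytosolic source of NADPH, rose 1.78-fold (0.83 ± 0.06) and the malic enzyme gene ME1 1.36-fold. PGD, which fell (-0.24, adjusted p = 0.0391), was lost in all fits without 1 array except that without sorafenib replicate 3. PGD and ACSS2, both named after their values were seen, did not pass with median centring over all probes.

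Among the other genes of elongation and desaturation, 1 of 12 rose, 2 fell and 9 did not pass, with a median of -0.06. The share past the threshold was 25%, against 36.7% of all tested genes. ELOVL1, which makes very long saturated chains, fell 1.44-fold (log2 -0.52 ± 0.08, SE) and ELOVL2, which lengthens polyunsaturated ones, 1.33-fold. The dehydratase gene HACD2 rose 1.29-fold on its brighter probe (adjusted p = 0.0129), a call lost without control replicate 1, while its other probe did not pass (0.26, adjusted p = 0.139). ELOVL2 did not pass with median centring over all probes. Among the 9 that did not pass by their brightest probe, a dimmer probe fell for HACD3, a further dehydratase gene (-0.59, adjusted p = 0.0262), and for the ceramide desaturase gene DEGS1 (-0.26, adjusted p = 0.0178), both named after their values were seen.

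The acyl-CoA synthetases and binding proteins had 3 of 7 genes higher, 2 lower and a median of 0.10. The share past the threshold was 71.4%, against 36.7% of all tested genes. ACSL4, which prefers arachidonate, fell 2.04-fold (log2 -1.03 ± 0.08, SE, adjusted p = 0.000220), with values of 9.67, 9.90 and 9.74 with sorafenib, against 10.85, 10.79 and 10.76 in control cells. DBI, the acyl-CoA binding protein, fell 1.53-fold. ACSL1, detected on 2 of 3 control arrays, rose 1.45-fold, and the mitochondrial ACSF2 also rose 1.45-fold. The remaining gene that rose was SLC27A2 (0.34, adjusted p = 0.0199), named after its values were seen. It was lost in all fits without 1 array except that without control replicate 3.

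Past GPAM, the 11 measured genes of glycerolipid synthesis held 2 that rose, 2 that fell and 7 below the threshold. Their median was -0.12, and 36.4% passed, against 36.7% of all tested genes. GPAT3, the acyltransferase of the endoplasmic reticulum that catalyses the same step as GPAM, rose 1.68-fold (log2 0.75 ± 0.10, SE, adjusted p = 0.00191). It read 10.00, 9.97 and 9.72 with sorafenib, against 9.14, 9.27 and 9.05 in control cells. GPAT4, a further enzyme of that step, differed by 0.05 without passing (adjusted p = 0.696; named after its value was seen). The phosphatidate phosphatase gene LPIN1 fell 1.44-fold. LPIN2 (-0.29, adjusted p = 0.0393) and DGAT1, of the last step to triglyceride (0.24, adjusted p = 0.0350), passed narrowly: LPIN2 was lost in all fits without 1 array except that without control replicate 1, and DGAT1 in all except that without sorafenib replicate 1. LPIN2 was also lost with median centring over all probes. DGAT2 was not detected on any array.

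Of 12 measured transcriptional regulators, 2 were higher, 3 lower and 7 not past, with a median of 0.03. The share past the threshold was 41.7%, against 36.7% of all tested genes (19.7% higher and 17% lower). INSIG1, which holds the SREBP precursors in the endoplasmic reticulum and is itself a sterol-responsive gene, fell 2.46-fold (log2 -1.30 ± 0.08, SE, adjusted p = 8.2e-05). MLXIPL, which encodes the carbohydrate-responsive factor ChREBP, rose 2.39-fold (1.26 ± 0.09, adjusted p = 0.000195). It read 10.76, 10.70 and 10.76 with sorafenib, against 9.67, 9.43 and 9.35 in control cells, and its other probe rose as well (1.38). NR1H3, the LXR-alpha gene, rose 1.38-fold. USF1, an E-box factor, had a difference of -0.57 (adjusted p = 0.0297), was detected on only 1 of 3 sorafenib arrays and did not pass without sorafenib replicate 1, sorafenib replicate 3, control replicate 1 or control replicate 2. SREBF1, named after its value was seen, fell 1.30-fold (-0.38 ± 0.07, adjusted p = 0.00530). It read 9.48, 9.57 and 9.46 with sorafenib, against 9.85, 9.87 and 9.92 in control cells. SREBF1 did not pass with median centring over all probes.

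Of the genes of malonyl-CoA turnover and its mitochondrial target, 2 of 6 measured rose (33.3%, against 36.7% of all tested genes past the threshold), none fell and the median was 0.24. CPT1B rose 1.70-fold (log2 0.77 ± 0.08, SE, adjusted p = 0.000708). CPT1A, the liver form of the acyltransferase that ACACB's malonyl-CoA inhibits, rose 1.61-fold on its brighter probe (0.68 ± 0.07, adjusted p = 0.000687), with 8.90, 8.94 and 8.77 with sorafenib, against 8.21, 8.16 and 8.20 in control cells. A second CPT1A probe differed by -0.04 without passing (adjusted p = 0.888). The kinase AMPK inactivates both carboxylases. Of the genes of AMPK and its upstream kinases, 28.6% were past the threshold, against 36.7% of all tested genes. By the brightest probe 2 of 7 measured rose and none fell, with a median of 0.10. The catalytic subunit gene PRKAA1 did not pass by that probe (-0.32, adjusted p = 0.101) but fell on its other one (-0.25, adjusted p = 0.0380; named after its values were seen). The regulatory subunit gene PRKAB2 rose 1.75-fold (0.81 ± 0.10, adjusted p = 0.00110). STK11, which encodes the AMPK-activating kinase LKB1, passed narrowly (0.23, adjusted p = 0.0373) and was lost in all fits without 1 array except that without control replicate 3.

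By likeness of pattern over the 6 arrays, the tested gene nearest to GPAM outside the 10 members was AARS1, to ACACB U2AF1L4 and to SCD DDIAS, each at a Pearson r of 0.999 or above. ACLY lay nearest to EXO1 (0.998), FASN to ALDH18A1 (0.998) and FADS1 to KAT2B (0.999). With 3 arrays per group these values mostly reflect the shared difference between groups, and 203 tested genes had an r over 0.99 with GPAM, 135 with ACACB and 90 with SCD.

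Between 16214 and 17380 probes were detected on an array, and the correlation of normalized values over probes was 0.992 to 0.997 for arrays of the same group and 0.977 to 0.982 for arrays of different groups. All 9 measured hepatocyte and hepatoma markers, among them ALB and AFP, were detected on all 6 arrays (summed normalized intensity 143015 to 149155 with sorafenib, against 152734 to 161052 in control cells), while the 2 probes of KRT18 were detected on none. Of 7 fibroblast and stellate markers, 2 were measured (LUM on all arrays, PDGFRB on control arrays only), with summed normalized intensities of 1089 to 1141 with sorafenib, against 1600 to 1856 in control cells, and COL1A1, COL1A2, COL3A1, DCN and ACTA2 were not detected on any array. Of 8 leukocyte and endothelial markers, CD14 and CD68 were measured (1342 to 1577 with sorafenib, against 1198 to 1234 in control cells), and PTPRC, CD3E, PECAM1, CDH5 and VWF were not detected. Their part in the members' differences was not tested. The RNA came from whole cultures, so a change in some cells and a smaller change in all of them cannot be told apart.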

How the data were processed

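Total RNA of 6 Hep3B samples was hybridised to Illumina expression BeadChips. Per the file headers, the authors deposited non-normalized intensities of 47321 probes with their detection p-values, array by array. A second deposited table holds log2 values whose method is not named; log2 of the deposited intensity, quantile-normalized over the 6 arrays, gave the same values with a largest difference of 5.0e-07, so scale and normalization are settled. The scanner software, slides and scan dates are unknown here.

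Intensities were background-corrected with limma 3.58.1 (R 4.3.3) by neqc, which estimates background from the detection p-values (offset 16), quantile-normalized and log2-transformed. Probes with a detection p-value under 0.01 on at least 3 arrays (16909) entered lmFit and eBayes for sorafenib minus control (two-sided, without a block), with Benjamini-Hochberg adjustment over all of them and a threshold of 0.05. Errors are moderated standard errors (SE) unless marked SD, and the number of arrays limits the precision. Probes were named from the platform annotation, and the 30112 with 1 symbol were matched by Entrez ID to RefSeq (30073 matched, none needed a new symbol). A gene is represented by its brightest tested probe; "at least" folds set the detected group's mean against, per array of the other group, whichever is higher of the lowest detected signal and that of the probe itself. Gene coordinates are those of GRCh38.p14.

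The members and the lists of pathway genes and markers were chosen with earlier results of these data known. Of each pathway list, up to 4 genes past the threshold with the largest differences are named. Alternatives were other background corrections, normalizations, filters, variance models, array weights, the replicate number as a block, each gene's median over probes, and fits without 1 array.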

Additional observations from a re-analysis of the deposited data

How the results depend on the processing

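The members past the threshold (2 higher, 4 lower) were the same in number under all alternative background corrections, normalizations, filters, variance models and array weights and without any 1 array, except that ACACA also passed with a variance trend and robust fit (-0.23, adjusted p = 0.0289) and with the median over its probes (-0.25, adjusted p = 0.0330). No member changed direction. Median centring over all probes left 1354 probes lower, against 2747, and shifted the median of all tested genes by 0.07; the cause was not tested. The shift of ACACB against ACACA was 1.38 without background correction, 1.60 with an offset of 50 and 1.83 to 1.89 with other normalizations, against 1.84. The shift of GPAM against the other members, whose alternatives were added after seeing the data, was 1.31 with either median centring, 0.92 without background correction and 1.06 with an offset of 50, against 1.22, and the cause was not tested. Replicate numbers were not taken to pair the samples. The same-numbered deviations from the group means correlated at 0.0892, 0.102 and 0.252 across probes. Sorafenib replicate 1 correlated at 0.0990 with control replicate 2. Sorafenib replicate 3 correlated at -0.136 and -0.148 with control replicates 1 and 2. Control replicate 3 correlated at -0.167 and -0.174 with sorafenib replicates 1 and 2. Deviations from a group mean cancel out within the group, so these negative values are not separate from the positive ones. The highest correlation was that of the replicates numbered 3, and its source was not tested. With the replicate number as a block, 5519 probes passed, against 5778, and the same 6 members passed. Of the pathway lists, DGAT1, LPIN2 and STK11 did not pass with the block. Other list genes were gained, so 30 passed with the block and 30 in the main fit. Elongation then had 2 higher, against 1, malonyl-CoA turnover 3 higher, against 2, and transcription control 4 lower, against 3. Signals near background limit the sizes for ACACB and GPAM.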
